A study of Mus musculus with 11 samples.

Results

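The 10 genes described here encode the enzymes that oxidize ethanol and acetaldehyde and the synthetase that takes up the acetate they leave: Adh1, Adh5, Cat and Cyp2e1 for ethanol, Aldh2, Aldh1b1, Aldh1a1, Aldh3a2 and Aldh7a1 for aldehydes, and Acss2 for acetate. They were chosen by symbol from the 53465 genes of the count files, and 9 of the 10 passed the filter on low counts. RNA came from mPFC CRF1+ neurons, cells of the medial prefrontal cortex collected by fluorescence-activated sorting for the GFP that marks cells expressing the corticotropin releasing factor receptor CRF1 in adult male CRF1:GFP reporter mice. Each library held the sorted cells of 1 mouse. The 5 withdrawn mice inhaled ethanol vapor intermittently for 5 to 6 weeks, were injected with ethanol and with pyrazole, an inhibitor of alcohol dehydrogenase, and were studied after 5 to 8 days of abstinence. The 6 naïve mice received pyrazole and breathed air. Both groups had thus received the inhibitor of the first enzyme of the pathway, and no group was without this treatment. Whether pyrazole remained when the cells were collected is not given in the sources used here. For 3 withdrawn mice (numbers 3, 4 and 5) a further label reads control, and the series text speaks of 5 control and 6 ethanol animals, the reverse of the recorded treatments. Groups here follow the recorded treatment, and the fold change of each member without these 3 mice is given as well.

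Ethanol is oxidized to acetaldehyde by alcohol dehydrogenases in the cytosol, by the cytochrome P450 enzyme CYP2E1 on the endoplasmic reticulum and, with hydrogen peroxide, by catalase in peroxisomes. Acetaldehyde is then oxidized to acetate, mainly by the mitochondrial aldehyde dehydrogenase ALDH2, and acetate is joined to coenzyme A by acyl-CoA synthetases such as ACSS2. In the liver ADH1 does most of the first step, whereas in the brain catalase and CYP2E1 are the enzymes usually considered.

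Between 7351567 and 22244869 reads per mouse were counted on genes. Levels are given as CPM, counts scaled to the normalised library size. In a single library 3 counts amount to 0.135 to 0.408 CPM by the library size before normalization. This limit is approximate for the levels given and covers counting error only, since the reads came from cDNA amplified from 160 pg of RNA. Crhr1, the gene for the sorted receptor, was at 92.3 ± 21.4 CPM (mean ± SD, here and below with n = 6 naïve and n = 5 withdrawn mice) against 88.7 ± 33.5 CPM in the withdrawn group. Slc17a7, the vesicular glutamate transporter of cortical excitatory neurons, was at 1429 ± 343 CPM and 1352 ± 447 CPM, and Gad2, which makes GABA, was at 39.7 ± 21.4 CPM and 57.0 ± 46.7 CPM. The interneuron peptide gene Sst went the other way, with means of 246 CPM in naïve and 6.41 CPM in withdrawn mice, and was the 1 GABAergic marker of 6 with an unadjusted p under 0.05 in edgeR. The libraries also held transcripts of other cell types in unequal amounts. Markers of meningeal fibroblasts summed to between 0.0676 and 72.6 CPM in naïve mice and to 1309.9, 18.1, 671, 909.9 and 225 CPM in withdrawn mice 1 to 5. All 6 of the 8 fibroblast markers that could be tested were higher in withdrawn mice, 5 of them with an unadjusted p under 0.05, among them the collagen gene Col1a1, while Lum and Igf2 were below the low-count filter and had lower means in withdrawn mice. Astrocyte markers summed to between 19.7 and 167 CPM in naïve mice and to 668, 16.1, 425, 679 and 231 CPM in withdrawn mice. Of the 6 astrocyte markers tested 3 were higher and 3 lower. The connexin genes Gja1 (means of 15.2 CPM in naïve and 185 CPM in withdrawn mice) and Gjb6 (8.97 and 185 CPM) were the 2 with an unadjusted p under 0.05, whereas the means of Aqp4, Slc1a3, Gfap, Agt and Slc39a12 were lower in withdrawn mice. Withdrawn mouse 2 had the lowest sum of both lists among withdrawn mice. In bulk RNA, fewer cells of a type and less RNA per cell cannot be told apart.

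**Figure D1:**
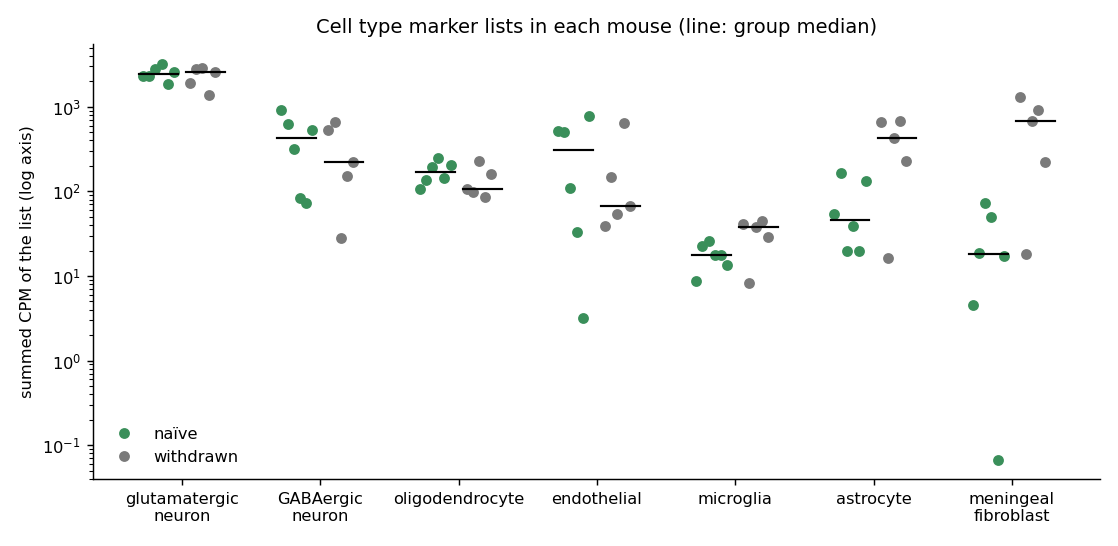
Summed CPM of the marker genes of 7 cell types (log axis) in each naïve mouse (green, n = 6) and withdrawn mouse (grey, n = 5), with a line at the group median. Neuronal markers overlap between groups, whereas 4 of 5 withdrawn mice lie above every naïve mouse for microglia, astrocyte and meningeal fibroblast markers and withdrawn mouse 2 lies among the naïve mice or below them.

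No member of the pathway differed between withdrawn and naïve mice after adjustment for multiple testing. Counts were compared over all 17093 genes that passed the low-count filter by the edgeR quasi-likelihood test with Benjamini-Hochberg adjustment, and calls required an adjusted p not above 0.05 together with a log2 fold change larger than 0.6, up or down. None of the 9 members tested was called, against 1 gene in the whole table, 0.00585% of those tested. The DESeq2 Wald test called none of the 9 members either, and gave no adjusted p for Cyp2e1, against 362 of 21849 genes, 1.66%. Without adjustment, 3 of the 9 members (Aldh2, Aldh1a1 and Aldh7a1) had a p under 0.05 with higher levels in withdrawn mice, a direction and threshold that 5.00% of all genes tested met, and no member had a p under 0.05 with lower levels, as 2.22% of all genes had. That count was 1 without the 3 mice of conflicting labels, and between 1 and 3 when any single mouse was left out. For none of the 10 members did the groups separate: all withdrawn mice lay above all naïve mice for 0.696% of the genes tested, and below them for 0.287%. Of the 9 members tested, 7 had a higher and 2 a lower fitted level in withdrawn mice, with a median log2 fold change of 0.44, where all genes tested had 8852 higher, 8241 lower and a median of 0.02. These counts depend on the filter. Adh1, among the 7, passed it with counts in 4 withdrawn mice and 1 naïve mouse. Cyp2e1, with a lower mean in withdrawn mice, did not pass.

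**Figure D2:**
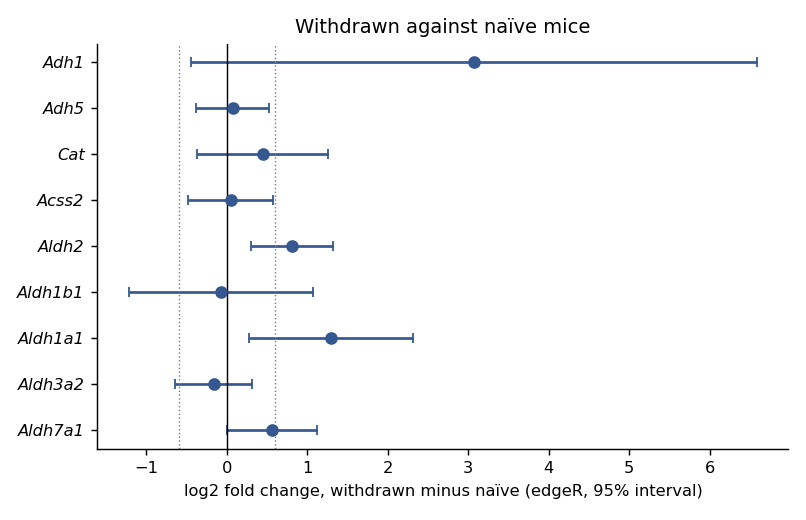
Log2 fold change of the 9 members tested, withdrawn minus naïve, with the 95% interval of the edgeR fit, a solid line at 0 and dotted lines at 0.6 on either side. Intervals lie above 0 for Aldh2 and Aldh1a1, touch 0 for Aldh7a1 (lower bound 0.000108) and span 0 for the other members, with the widest for Adh1.

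Of the enzymes that act on ethanol itself, Adh5 and Cat had counts in all 11 mice. Adh1 had 22 to 53 counts in 4 of 5 withdrawn mice and none in the naïve mice other than mouse 3. Cyp2e1 was at or near the limit of detection in every mouse but naïve mouse 2. Adh1, the class I alcohol dehydrogenase that pyrazole inhibits (ENSMUSG00000074207, chromosome 3 of GRCm38 from 138260991 to 138290698 on the plus strand), had counts in 1 of 6 naïve and 4 of 5 withdrawn mice. Naïve mouse 3 had 19 counts, or 1.77 CPM, and the other naïve mice had 0. By their library sizes before normalization, 0 counts allow up to 0.168 to 0.301 CPM. The withdrawn mice had 3.79, 4.64, 1.12, 2.66 and 0 CPM, from 53, 42, 24, 22 and 0 counts. Withdrawn mice 1, 2 and 4 were thus above every naïve mouse, and the mouse with no count overlapped the naïve group. Mean levels were 0.295 ± 0.722 CPM in the naïve and 2.44 ± 1.90 CPM in the withdrawn group. The fitted log2 fold change was 3.07 (standard error 1.64, 95% interval -0.45 to 6.59). Its unadjusted p was 0.0825 and its adjusted p 0.767 in the edgeR test, and DESeq2 gave an adjusted p of 0.624. Without the 3 mice of conflicting labels the log2 fold change was 3.82 (edgeR adjusted p = 0.789). Of the 2233 exonic bases of Adh1, 136 also lie in exons of Gm16559, which is read from the other strand, and whether the counting used strand is not given in the sources used here.

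Adh5 encodes the class III alcohol dehydrogenase, which acts mainly on the glutathione adduct of formaldehyde and only weakly on ethanol (ENSMUSG00000028138, chromosome 3 from 138443093 to 138455499, plus strand). Naïve mice ranged from 48.6 to 95.4 CPM with a median of 72.1 CPM, and withdrawn mice had 109, 58.4, 69.4, 70.4 and 80.5 CPM. Withdrawn mouse 1 alone was above the naïve range, and no withdrawn mouse was below it. Between groups Adh5 differed by 0.07 on the log2 scale (95% interval -0.38 to 0.52, edgeR adjusted p = 0.972), an interval that leaves out a change beyond 0.6 in either direction. Its sign turned when naïve mouse 3 or withdrawn mouse 1 was left out, and the value was 0.14 without the 3 mice of conflicting labels.

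Cat, which encodes catalase (ENSMUSG00000027187, chromosome 2 from 103453849 to 103485160, minus strand), ranged from 20.7 to 52.6 CPM in naïve mice, with a median of 32.3 CPM. The withdrawn mice had 89.1, 14.2, 46.7, 43.5 and 31.4 CPM, so that withdrawn mouse 1 was above and withdrawn mouse 2 below all naïve mice. The coefficient of variation between mice was 32.6% in the naïve group and 61.8% in the withdrawn group. Its log2 fold change was 0.44 (standard error 0.38, edgeR adjusted p = 0.877), and the value was 0.02 without withdrawn mouse 1, 0.65 without withdrawn mouse 2 and 0.61 without the 3 mice of conflicting labels. Among withdrawn mice these 2 also had the highest and the lowest summed level of meningeal fibroblast markers, and the part of those markers in the values of Cat was not tested.

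Cyp2e1, the ethanol-inducible cytochrome P450 (ENSMUSG00000025479, chromosome 7 from 140763739 to 140774987, plus strand), was below the low-count filter. Naïve mice 2 and 4 had 24 and 4 counts, 1.31 and 0.232 CPM, and withdrawn mice 4 and 5 had 2 counts each, 0.241 and 0.141 CPM. The other 7 mice had none, and in no withdrawn mouse did the count exceed 3. Group means of 0.257 ± 0.524 CPM and 0.0765 ± 0.111 CPM did not differ beyond their error (exact permutation test over all 462 splits, two-sided p = 0.803, with 0.00216 the smallest p the design allows). A difference of Cyp2e1 between the groups was not detectable at this depth.

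**Figure D3:**
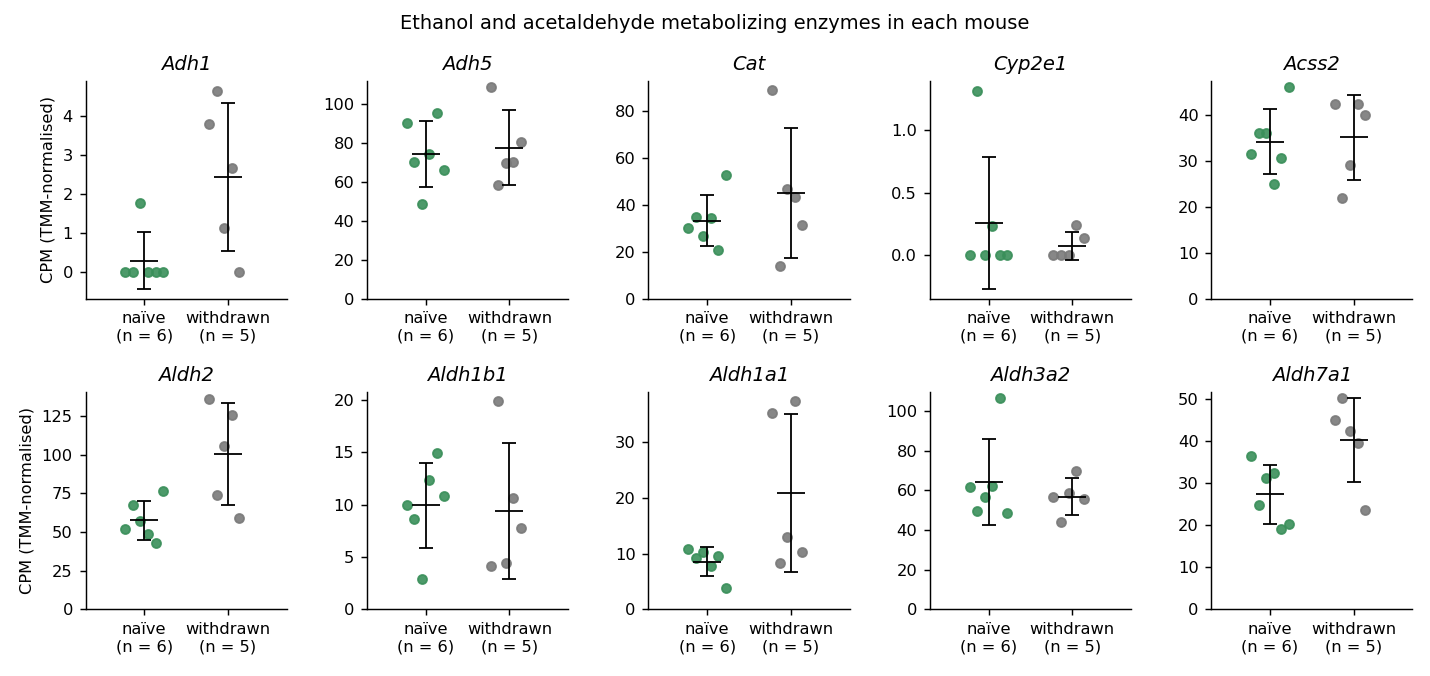
CPM on TMM-normalised library sizes of each of the 10 members in every naïve mouse (green, n = 6) and withdrawn mouse (grey, n = 5), with the mean and SD of each group as horizontal line and bar. Vertical scales differ between genes. The groups overlap in every panel, and withdrawn mice with Aldh2 above 100 CPM (1, 3 and 4) include the 2 mice with Aldh1a1 above 30 CPM (1 and 4).

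The mitochondrial aldehyde dehydrogenases clear most acetaldehyde, and the larger difference between groups was in Aldh2. Aldh2 (ENSMUSG00000029455, chromosome 5 from 121566027 to 121593824, minus strand) encodes the enzyme with the highest affinity for acetaldehyde. Naïve mice had between 43.2 and 76.8 CPM, with a median of 54.6 CPM. Withdrawn mice had 136, 74.1, 106, 126 and 59.1 CPM. Mice 1, 3 and 4 of the withdrawn group were above every naïve mouse, while withdrawn mice 2 and 5 were inside the naïve range. Means were 57.6 ± 12.5 CPM for naïve and 100.3 ± 33.0 CPM for withdrawn mice, a ratio of 1.74. On the log2 scale the fitted difference was 0.81 (standard error 0.24, 95% interval 0.30 to 1.31), with an unadjusted p of 0.00429 that placed Aldh2 at rank 240 of the 17093 genes and an adjusted p of 0.305 in the edgeR test. DESeq2 gave 0.84 and an adjusted p of 0.0860. Without the 3 mice of conflicting labels the log2 fold change was 0.83 (edgeR adjusted p = 0.789), and leaving out single mice kept it between 0.65 and 0.94, with edgeR adjusted p-values from 0.136 to 0.860. Withdrawn mice 1, 3 and 4 were also the 3 with the highest summed levels of meningeal fibroblast and astrocyte markers, and the part of those markers in the level of Aldh2 was not tested. Of the 5126 exonic bases of Aldh2, 130 also lie in exons of Gm42879, which is read from the other strand.

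Aldh1b1, a mitochondrial relative of Aldh2 that also oxidizes acetaldehyde (ENSMUSG00000035561, chromosome 4 from 45799022 to 45804604, plus strand), had no such pattern. It ranged from 2.89 to 14.9 CPM in naïve mice, with a median of 10.4 CPM, and stood at 4.15, 19.9, 4.38, 10.6 and 7.76 CPM in withdrawn mice. Withdrawn mouse 2 was above all naïve mice, and the other withdrawn mice were within the naïve range. Aldh1b1 had a log2 fold change of -0.08 (standard error 0.53, edgeR adjusted p = 0.987), and its 95% interval of -1.22 to 1.07 leaves room for changes of more than 0.6 in either direction. Without the 3 mice of conflicting labels it was 0.21.

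Aldh1a1, the cytosolic retinaldehyde dehydrogenase that also takes acetaldehyde (ENSMUSG00000053279, chromosome 19 from 20492715 to 20643465, plus strand), had the largest difference of the members with counts in all 11 mice. Naïve mice ranged from 3.82 to 10.8 CPM with a median of 9.36 CPM, the lowest being naïve mouse 6. Withdrawn mice had 35.1, 8.29, 13.0, 37.3 and 10.3 CPM. Withdrawn mice 1, 3 and 4 were above every naïve mouse, mice 1 and 4 by the widest margin, and withdrawn mice 2 and 5 were among the naïve values. The naïve mean was 8.56 ± 2.56 CPM and the withdrawn mean 20.8 ± 14.2 CPM, a ratio of 2.43, and the coefficient of variation was 29.9% in naïve and 68.2% in withdrawn mice. Aldh1a1 had a log2 fold change of 1.29 (standard error 0.47, 95% interval 0.27 to 2.31), with an unadjusted p of 0.0170 and an adjusted p of 0.495 in the edgeR test, and DESeq2 gave an adjusted p of 0.143. It was 0.99 without withdrawn mouse 1, 0.95 without withdrawn mouse 4 and 1.47 without withdrawn mouse 2, and none of these passed the adjusted threshold. Without the 3 mice of conflicting labels it was 1.32, with an unadjusted p above 0.05 and an edgeR adjusted p of 0.789. As for Aldh2, the 3 high mice were those with the highest sums of the fibroblast and astrocyte lists, and the part of those markers was not tested.

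The reading of Aldh1a1 rests on telling it from Aldh1a7, its nearest relative in the mouse, and the sequences are shown to let this be judged for 75-base reads. Their coding sequences, taken from the GENCODE M21 transcripts on GRCm38, are both 1503 bases long and 91.6% identical, with 126 bases that differ. A 75-base stretch of the coding sequence holds a median of 6 differing bases and at most 17, and 50 of 1429 stretches are the same in both genes. Bases 22 to 96 of the coding sequence are such a median stretch, written 5′ to 3′ with the differing bases in capitals.
Aldh1a1: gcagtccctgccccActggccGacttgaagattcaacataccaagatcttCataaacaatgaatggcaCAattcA
Aldh1a7: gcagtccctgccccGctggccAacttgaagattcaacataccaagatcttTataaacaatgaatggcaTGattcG
Bases 121 to 195 are a stretch without a difference, which a read of this length could not assign to one gene.
Aldh1a1: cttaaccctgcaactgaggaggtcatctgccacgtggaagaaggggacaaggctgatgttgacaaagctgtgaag
Aldh1a7: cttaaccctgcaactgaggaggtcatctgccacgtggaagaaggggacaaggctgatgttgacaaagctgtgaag
Over the whole transcript, 2.19% of 75-base stretches of Aldh1a1 occur in another gene, in each case Aldh1a7. Aldh1a7 itself was at 2.39 ± 3.48 CPM in the naïve group and 1.36 ± 1.37 CPM in the withdrawn group, with a log2 fold change of -0.81 (edgeR adjusted p = 0.944). Its highest level, 9.34 CPM, was in naïve mouse 5. Among withdrawn mice Aldh1a7 was highest in mouse 4, at 3.50 CPM, followed by mouse 1, at 1.72 CPM. These were also the mice with Aldh1a1 above 30 CPM. Whether reads were assigned to the wrong gene of this pair was not tested.

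Aldh3a2, the fatty aldehyde dehydrogenase of the endoplasmic reticulum (ENSMUSG00000010025, chromosome 11 from 61223417 to 61267464, minus strand), differed least from mouse to mouse in the withdrawn group. Naïve mice ranged from 48.5 to 107 CPM with a median of 59.1 CPM, and withdrawn mice had 56.5, 43.9, 58.9, 69.7 and 55.6 CPM. The highest value was that of naïve mouse 5, and withdrawn mouse 2 was just below the naïve range. The coefficient of variation was 33.6% in naïve and 16.1% in withdrawn mice. On the log2 scale the groups differed by -0.17 (standard error 0.22, edgeR adjusted p = 0.934), and it was 0.04 without naïve mouse 5 and -0.39 without the 3 mice of conflicting labels.

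Aldh7a1, the antiquitin gene, whose enzyme oxidizes an aldehyde of lysine breakdown (ENSMUSG00000053644, chromosome 18 from 56509687 to 56572951, minus strand), was the member with the most withdrawn mice above the naïve range. Naïve mice had between 19.1 and 36.4 CPM, with a median of 28.1 CPM. Withdrawn mice had 45.0, 50.2, 42.6, 39.6 and 23.7 CPM, so that 4 of 5 were above every naïve mouse and withdrawn mouse 5 was inside their range. Its highest level was in withdrawn mouse 2, the withdrawn mouse with the lowest sums of fibroblast and astrocyte markers. Withdrawn mice 1, 3 and 4, with the highest sums, were also above every naïve mouse. The part of those markers in the level of Aldh7a1 was not tested. Mean levels of 27.4 ± 7.02 CPM and 40.2 ± 10.0 CPM gave a ratio of 1.47. The log2 fold change was 0.56 (standard error 0.26, 95% interval 0.000108 to 1.12), with an unadjusted p of 0.04996 just under the threshold and an adjusted p of 0.692 in the edgeR test, and 0.334 in DESeq2. The unadjusted p was not under 0.05 with TMMwsp normalization, without a low-count filter, with the replicate block, without the 3 mice of conflicting labels (log2 fold change 0.75) or in 9 of the 11 fits that left out 1 mouse. Of the 5181 exonic bases of Aldh7a1, 300 also lie in exons of Phax, which is read from the other strand.

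Acss2, the acyl-CoA synthetase of cytosol and nucleus that turns acetate into acetyl-CoA (ENSMUSG00000027605, chromosome 2 from 155517948 to 155585724, plus strand), had like levels in both groups. Naïve mice ranged from 24.9 to 46.2 CPM with a median of 33.8 CPM, and withdrawn mice had 42.4, 21.9, 29.0, 42.4 and 40.1 CPM. Only withdrawn mouse 2 was outside the naïve range, below it. The log2 fold change was 0.04 (95% interval -0.48 to 0.57, edgeR adjusted p = 0.985), an interval that holds no change beyond 0.6, and it was -0.13 without the 3 mice of conflicting labels. Of its 10163 exonic bases 927 also lie in exons of Ggt7, Acss2os or Gss, all on the other strand, and 4.68% of 75-base stretches of the transcript searched occur in Ggt7 or Acss2os.

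Across the 10 members, 6 mice held a highest level. Withdrawn mouse 1 had the highest level of 3 of the 10 members (Adh5, Aldh2 and Cat). Withdrawn mouse 2 had the highest level of 3 (Adh1, Aldh1b1 and Aldh7a1) and the lowest of 3 (Aldh3a2, Cat and Acss2). Between the highest and the lowest mouse, levels differed 2.11-fold for Acss2 and 2.24-fold for Adh5, but 9.77-fold for Aldh1a1, 6.90-fold for Aldh1b1 and 6.30-fold for Cat. By this ratio Acss2 and Adh5 varied least among members with counts in every mouse, followed by Aldh3a2 (2.43-fold) and Aldh7a1 (2.63-fold). The coefficient of variation was lowest for Acss2 in naïve mice (20.9%) and for Aldh3a2 in withdrawn mice (16.1%).

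Levels were also compared between members per length, as CPM per kilobase of all annotated exons. By the median of 11 mice, Aldh2 (13.2 CPM per kb), Cat (13.1) and Adh5 (13.0) stood together at the top. Aldh2 was above Cat in 5 of 11 mice and Cat above Adh5 in 6 of 11, so these 3 neighbours did not differ beyond their spread. The order of these members differed between groups: naïve medians were 13.3 for Adh5, 12.3 for Cat and 10.7 for Aldh2, and withdrawn medians 20.7 for Aldh2, 16.6 for Cat and 13.0 for Adh5. Aldh3a2 followed at 10.1 CPM per kb, below Adh5 in 9 of 11 mice, and Aldh7a1 at 6.26 CPM per kb, below Aldh3a2 in 10 of 11. Aldh1b1 was at 4.33 CPM per kb, Acss2 at 3.55 and Aldh1a1 at 2.09, with Aldh1b1 above Acss2 in 7 of 11 mice and Acss2 above Aldh1a1 in 9. Adh1 and Cyp2e1 had a median of 0. This order depends on the length used. Per kilobase of the longest protein-coding transcript, a scale chosen after seeing the data, Adh5 came first at 43.9 CPM per kb, above the next member in all 11 mice. It was followed by Aldh3a2 (18.3), Aldh2 (17.4), Cat (13.1), Acss2 (12.3), Aldh7a1 (7.85), Aldh1a1 (4.37) and Aldh1b1 (4.33). Aldh3a2 was above Aldh2 in only 5 of 11 mice, and Cat above Acss2 and Aldh1a1 above Aldh1b1 in 7 each. Aldh2 was above Cat, Acss2 above Aldh7a1 and Aldh7a1 above Aldh1a1 in 9 of 11 mice each. Adh1 and Cyp2e1 were the last 2 on both scales.

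**Figure D4:**
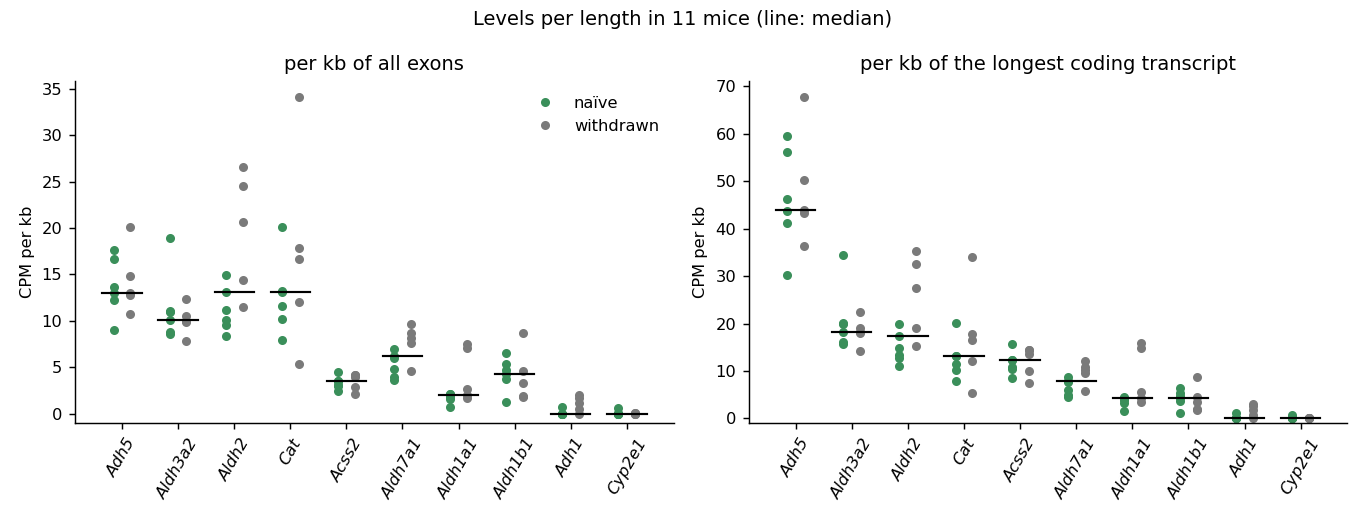
Level of each member per kilobase of all exons (left) and of the longest protein-coding transcript (right) in each naïve (green) and withdrawn (grey) mouse, in CPM per kb, with a line at the median of 11 mice. The vertical scales differ. Adh5 is first on the right at a median of 43.9 but level with Aldh2 and Cat on the left at 13.0, and Adh1 and Cyp2e1 lie at a median of 0 on both.

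Beyond the members, 68 other genes of the pathway were read from the same test, and 52 of them had counts enough to be tested. In withdrawn mice 24 were higher and 28 lower, with a median log2 fold change of -0.05, and none was called by edgeR. With an unadjusted p under 0.05 there were 3 higher and 1 lower, counts near the 5.00% and 2.22% of all genes tested. DESeq2 called 1 of them, Pld1, where it called 1.66% of all genes.

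The genes of non-oxidative ethanol products held the largest differences. Pld1 encodes a phospholipase D, which in the presence of ethanol forms phosphatidylethanol. It had between 0.135 and 2.89 CPM in naïve mice, with a median of 0.959 CPM, and 10.6, 7.30, 8.30, 28.4 and 2.47 CPM in withdrawn mice, of which only mouse 5 overlapped the naïve range. The log2 fold change was 3.08 (standard error 0.83), with an adjusted p of 0.256 in edgeR and 0.00444 in DESeq2. Sult1a1, a sulfotransferase of the kind that can form ethyl sulfate, had 44.7, 0, 41.6, 89.0 and 20.0 CPM in withdrawn mice and from 0 to 8.63 CPM in naïve mice. Withdrawn mouse 2 had no count of it, the other 4 were above all naïve mice, and the log2 fold change was 3.06 (edgeR adjusted p = 0.473). The same 4 mice had the highest sums of the fibroblast list and of the astrocyte list with its high Gja1 and Gjb6, and the part of those markers in Sult1a1 was not tested. All 4 genes tested of this list were higher in withdrawn mice.

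Among the partners of microsomal oxidation, Por, the reductase that passes electrons to all microsomal cytochromes P450, was at 468, 109, 272, 286 and 168 CPM in withdrawn mice. The naïve levels were 111 to 185 CPM, so that withdrawn mice 1, 3 and 4 were above and withdrawn mouse 2 below their range. These 3 mice had the highest and withdrawn mouse 2 the lowest sums of fibroblast and astrocyte markers in the withdrawn group, and their part was not tested. Its log2 fold change was 0.89 (standard error 0.30, edgeR adjusted p = 0.423). The 2 cytochrome b5 genes were nearer to 0, with log2 fold changes of -0.28 for Cyb5a and 0.02 for Cyb5b, and Cyp2d22, a cytochrome P450, was at 1.53 with an edgeR adjusted p of 0.864. The liver enzymes Cyp1a2 and Cyp3a11 were below the low-count filter.

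Hydrogen peroxide is the second substrate of catalase, and of the 13 genes that handle it 4 were higher and 9 lower, with a median log2 fold change of -0.19. Prdx5, a peroxiredoxin of mitochondria and peroxisomes, had 267, 286, 269, 185 and 308 CPM in withdrawn mice and from 273 to 425 CPM in naïve mice (median 327 CPM). Withdrawn mice 1, 3 and 4 were below the naïve range and mice 2 and 5 inside it, so that again the 3 mice with the highest sums of those markers stood apart, whose part was not tested. For Prdx5 the log2 fold change was -0.38 (standard error 0.17, unadjusted p = 0.0402, edgeR adjusted p = 0.654). Sod1, the cytosolic superoxide dismutase, had a log2 fold change of -0.55 (edgeR adjusted p = 0.707), with its 2 highest levels, 354 and 295 CPM, in naïve mice 5 and 1. Gpx1, a glutathione peroxidase, was at 0.28 on the same scale.

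The other aldehyde dehydrogenases were divided, with 7 of 13 higher and 6 lower. Aldh6a1, a mitochondrial enzyme of valine breakdown, had the smallest unadjusted p of the list (0.0587), at 29.9 ± 5.50 CPM in the naïve and 42.2 ± 12.1 CPM in the withdrawn group and a log2 fold change of 0.50 (edgeR adjusted p = 0.708). Aldh16a1 was at -1.28 on the same scale with a standard error of 0.82, Aldh3b2 at -0.53 with 0.60 and Aldh3a1 at 1.76 with 1.47, each with an edgeR adjusted p of at least 0.816. Of the other alcohol dehydrogenases, Adh4, Adh6a, Adh6b and Adh7 were below the low-count filter, and Adhfe1, a hydroxyacid-oxoacid transhydrogenase, had a log2 fold change of 1.62 with a standard error of 1.21.

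Reductases of aldehydes and ketones, listed together with Esd, had 3 of 9 genes higher and 6 lower. Esd is not a reductase but completes the formaldehyde route that ADH5 starts. It was at 127 ± 46.7 CPM in the naïve and 101 ± 15.8 CPM in the withdrawn group, with a log2 fold change of -0.34 (edgeR adjusted p = 0.833). Dhrs4 was at 0.91 with a standard error of 0.57, Cbr3 at 0.36 with 1.43 and Cbr4 at -0.23 with 0.29. Of the genes of acetate and acetyl-CoA, 2 of 7 were higher and 5 lower, with a median of -0.10. Acly, the citrate lyase that supplies cytosolic acetyl-CoA beside ACSS2, had a log2 fold change of 0.21 (standard error 0.22), the mitochondrial acetate enzyme Acss1 0.06 (1.43), Acat2 -0.27 (0.21) and Crat -0.11 (0.24).

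**Figure D5:**
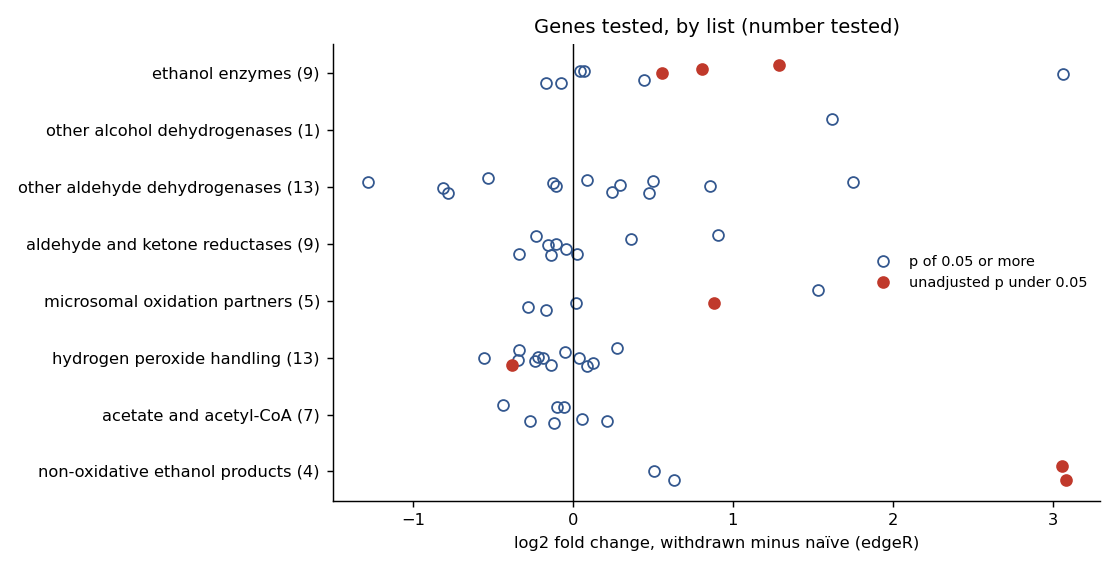
Log2 fold change, withdrawn minus naïve, of each gene tested in the members' list and in 7 lists of other pathway genes, with filled points for an unadjusted p under 0.05. Most points lie near 0, with Aldh2, Aldh1a1 and Aldh7a1 filled among the members and Por, Prdx5, Pld1 and Sult1a1 filled among the 52 other genes.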

How the data were processed

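Single reads of 75 bases were processed by the authors, who removed adapters (cutadapt 1.18), aligned to the GRCm38 assembly (STAR 2.5.2a, annotation of Ensembl release 91), obtained gene counts (HTSeq 0.11.0) and compared groups (DESeq2 1.20.0). The deposited values are raw counts per Ensembl gene and mouse, neither normalized nor pooled. The strand setting is not given in the sources used here. Tally rows of the counting step, which name no gene, were left out of library sizes and tests. Reads outside exons made up 5.77% of tallied reads in naïve mouse 5, the lowest share, and 48.1% in withdrawn mouse 4, the highest. Withdrawn mouse 4 also had the fewest reads on genes, and naïve mouse 5 the fewest genes with a count (15585). The part of these library measures in the levels of the members was not tested. Symbols came from GENCODE M21 on the same assembly, which named 53360 of 53465 identifiers.

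Counts were tested with edgeR 4.0.16 in R 4.3.3 (TMM, filterByExpr with a minimum count of 10 and a minimum total of 15, quasi-likelihood test, Benjamini-Hochberg adjustment over all genes tested). CPM used TMM-normalised library sizes and log2 CPM a prior count of 2. A standard error is the size of the log2 fold change divided by the square root of its F statistic. DESeq2 1.42.0, other normalizations and filters, a replicate block, and leaving out each mouse or the 3 mice of conflicting labels were alternatives. All pairs of libraries differed by more than sampling noise (chi-square per degree of freedom of at least 28.9). The members, the lists of pathway and marker genes and the alternatives were chosen with earlier results of these data known. Named were all members, the markers needed to describe the sorted cells, and of each pathway list the 2 genes per direction with the smallest p, of which 1 is not reported here. Sst, Cyb5b, Cyp1a2, Cyp3a11, Aldh1a7 and the untested alcohol dehydrogenases were named after their values were seen.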

Additional observations from a re-analysis of the deposited data

Results flagged for a closer look

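Each group of mice was checked for a value far from the rest, and 9 of 42 sets of values held one. Some sets were mostly at 0, so this count is not compared with a rate by chance. Among the members, naïve mouse 3 was far above the other naïve mice for Adh1 (log2 CPM 0.94, the only naïve mouse with a count) and far below them for Aldh1b1 (log2 CPM 1.599, the next being 3.12). Naïve mouse 6 was far below the others for Aldh1a1 (log2 CPM 1.99, the next being 2.97), naïve mouse 5 was far above them for Aldh3a2 (log2 CPM 6.74, the next being 5.97), and naïve mouse 2 was far above them for Cyp2e1 (1.31 CPM, the next being 0.232 CPM). Among the summed marker levels, withdrawn mouse 4 was far above the other withdrawn mice for endothelial (639 CPM), mural (236 CPM) and red blood cell markers (191 CPM), and withdrawn mouse 1 for ependymal and choroid plexus markers (22.1 CPM).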

How the results depend on the processing

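Members past both thresholds numbered 0 in every alternative run. The 1 gene called in the whole table became 137 without a low-count filter, 30 with at least 10 counts in every mouse, 362 with DESeq2, 0 without the 3 mice of conflicting labels, and 0 with the replicate block. Leaving out single mice gave 0 to 193, with 193 without withdrawn mouse 2 and 6 without naïve mouse 2. Pathway genes past the thresholds were 0 except for 1 with DESeq2. Same-numbered mice did not clearly deviate together (correlations -0.01, -0.06, -0.20, 0.04 and 0.18). These few values cannot exclude a pairing by number, and the replicate block called 0 members. Fold changes turned sign only for Adh5, Aldh1b1, Aldh3a2 and Acss2, all near 0. Without the 3 mice of conflicting labels Aldh1b1 was at 0.21 and Acss2 at -0.13 (log2). Leaving out single mice gave -0.098 to 0.16 for Adh5 (-0.022 without naïve mouse 3), -0.58 to 0.083 for Aldh1b1, -0.26 to 0.044 for Aldh3a2 and -0.047 to 0.16 for Acss2. Adh1, at 3.07, was at 5.84 with the replicate block, and could not be fitted with at least 10 counts in every mouse or without naïve mouse 3. Per longest transcript, or per longest protein-coding transcript (chosen after seeing the data), 2 of 10 members kept their rank in the order of the levels, Adh1 and Cyp2e1. The causes of these changes were not tested. At this depth a difference of Cyp2e1 could not be resolved. That of Adh1 had a wide 95% interval that included 0. The strand setting limits Adh1, Aldh2, Aldh7a1 and Acss2. No label names a batch.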
